A study of Mus musculus with 9 samples.

Results

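IFNs act through receptors built from a pair of different membrane chains, and these chains are encoded by 6 mouse genes: *Ifnar1* and *Ifnar2* for type I IFN, *Ifngr1* and *Ifngr2* for type II IFN, and *Ifnlr1* and *Il10rb* for type III IFN. They were picked by gene symbol from the 52550 genes listed in the expression values of A/A replicate 1. The cells were pDCs, sorted from mouse spleen as CD11c-intermediate, SiglecH-positive and PDCA1-positive cells. The mice were on the C57BL/6 strain and, by the study's methods, were females of 10 to 12 weeks. A/A mice are homozygous for a knocked-in base change in *Ncf1*, made with CRISPR/Cas9, which replaces arginine by histidine in this subunit of the NADPH oxidase NOX2. The series also holds G/G (WT) and heterozygous G/A (AG in the labels) pDCs, with 3 libraries for each of the 3 genotypes, and all cells were kept with 10 μg/mL R848, a TLR7/-8 ligand, for 12 hours. The values come from A/A replicate 1, with the other 8 libraries not analysed here, so there is no difference between genotypes, no unstimulated sample and no replicate error below. Whether the RNA was pooled from several mice is not stated in the sources used here.

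All classes of IFN receptor work through JAK kinases bound to the tails of the chains. Type I IFN, of which pDCs are the best-known source, is bound tightly by IFNAR2 and then recruits IFNAR1. IFN-γ is bound by IFNGR1, and IFNGR2 completes the signaling complex. Type III IFN is bound by IFNLR1, a chain best known from epithelial cells, while IL10RB is the common partner chain of the receptors for IL-10, IL-22 and type III IFN. Types I and III act mainly on genes with the ISRE sequence, and type II on genes with the GAS sequence.

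The values correspond to 31408298 reads assigned to 17664 genes, with the smallest value above 0 taken as 1 read. Levels are given on a pair of scales. CPM is the reads of a gene per 1000000 of these assigned reads. TPM is the reads per kilobase of annotated exon, scaled to a sum of 1000000, and is the scale used for any comparison between genes. Intervals are Wilson 95% intervals, which cover counting error only, and the floor of 3 reads corresponds to 0.0955 CPM. The knocked-in gene *Ncf1* had 33881 reads, which do not separate the alleles. The library went against the stated sex of the mice: *Xist* was listed at 0, and the Y-linked genes *Ddx3y*, *Eif2s3y*, *Kdm5d* and *Uty* had 597 to 3215 reads. All values below come from this library, so none can be given without it. As a check of the cell type, 11 of 11 pDC markers had reads, with a summed level of 14857 TPM and a median of 251 TPM. Of all 52403 genes with an annotated length, 17632 had reads and 15936 were above the floor. Of the markers of other cells, none of the 3 NK cell genes and only *Trac* of the 5 T cell genes had reads. Reads were found for 4 of 5 B cell markers (summed level 13.3 TPM), 6 of 7 conventional DC markers (1970 TPM, of which *Ccl22* made 1507), 6 of 6 macrophage markers (124 TPM), 2 of 5 neutrophil markers (103 TPM), 2 of 5 epithelial markers (51.0 TPM) and 2 of 5 erythroid markers (12.2 TPM). In each of these lists except that of macrophages at least 1 gene was listed at 0, among them *Pax5*, *Cd209a*, *Ly6g*, *Krt8* and *Hbb-bs*. The same lists held *Cd79b* with 6.71 TPM, *S100a8* with 55.0, *Hba-a1* with 9.08 and the macrophage gene *C1qb* with 62.3. In the conventional DC list, *Fscn1* had 370 TPM, *Clec9a* 58.4, *Zbtb46* 32.3, *Clec10a* 2.11 and *Xcr1* 1.00. The part of other cells in the receptor levels was not tested.

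For *Ifnar1*, A/A replicate 1 gave 17665 reads, which is 562 CPM (95% CI, 554 to 571). *Ifnar2* had 12754 reads, or 406 CPM (95% CI, 399 to 413). Both chains of the type I receptor were therefore read deeply, and per length they stood above the other 4 genes. *Ifnar2* had 317 TPM (95% CI, 312 to 323) and *Ifnar1* had 246 TPM (95% CI, 243 to 250), which placed them at percentile 97.6 and percentile 96.9 among genes with reads. In bulk RNA, fewer cells with a transcript and less of it per cell cannot be told apart.

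The value of a gene sums its annotated transcripts, which number 8 for *Ifnar1*, 6 for *Ifngr1*, 5 for *Ifnar2*, 5 for *Il10rb*, 3 for *Ifngr2* and 1 for *Ifnlr1* (GENCODE M21). For *Ifnar2* this matters to what the level means, because the gene is known to give both a membrane-spanning chain and a shorter soluble form. The coding sequences of its transcripts Ifnar2-201 (1539 bases) and Ifnar2-202 (741 bases) are identical over their first 709 bases and differ from base 710 on. The stretches around this point are shown because the sequences part there. The last 30 shared bases are in lower case and the next 30 bases of each transcript in capitals.
Ifnar2-201: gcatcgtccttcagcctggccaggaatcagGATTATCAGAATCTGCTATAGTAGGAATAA
Ifnar2-202: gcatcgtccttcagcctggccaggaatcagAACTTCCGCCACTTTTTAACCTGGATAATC
The values give 12754 reads for all *Ifnar2* transcripts together and do not divide them between these forms.

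The chains of the type II receptor were lower and unequal. *Ifngr2*, the accessory chain, had 4692 reads, or 149 CPM (95% CI, 145 to 154) and 103 TPM (95% CI, 100.2 to 106). *Ifngr1*, the ligand-binding chain, had 1547 reads, or 49.3 CPM (95% CI, 46.9 to 51.8) and 45.0 TPM (95% CI, 42.8 to 47.3). They stood at percentiles 92.6 and 85.0. *Ifngr1* was thus the lower chain of its pair, but it was still well above the median of 4.94 TPM over all genes with reads.

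The chains of the type III receptor were furthest apart. *Il10rb* had 4235 reads, or 135 CPM (95% CI, 131 to 139) and 92.1 TPM (95% CI, 89.4 to 94.9), at percentile 91.8. *Ifnlr1* had 37 reads, or 1.18 CPM (95% CI, 0.855 to 1.62) and 0.733 TPM (95% CI, 0.532 to 1.01), at percentile 20.2 of the genes with reads. *Ifnlr1* was above the floor of 3 reads and was the only receptor chain of the 6 below the median of genes with reads. Its interval held the levels of 1533 genes. Among the epithelial markers, *Krt8*, *Krt18* and *Krt19* were listed at 0, *Epcam* had 186 reads (5.92 CPM) and *Cdh1* had 2431 (77.4 CPM).

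**Figure D1:**
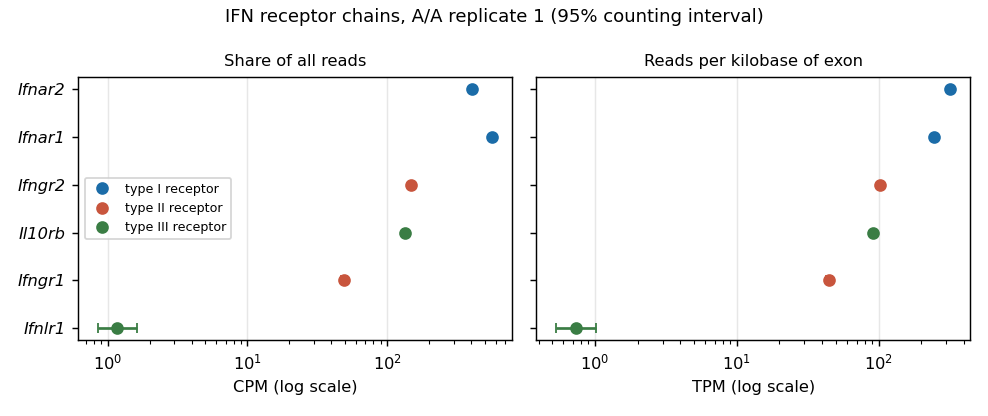
Levels of the 6 receptor chain genes in A/A replicate 1, as CPM (left) and as TPM (right), both on log axes, with Wilson 95% counting intervals. *Ifnlr1*, at 1.18 CPM and 0.733 TPM, lies far to the left of the other 5 genes, which run from 45.0 to 317 TPM, and *Ifnar1* and *Ifnar2* change places between the scales.

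The order per kilobase of exon was *Ifnar2*, *Ifnar1*, *Ifngr2*, *Il10rb*, *Ifngr1* and *Ifnlr1*. Each gene exceeded the next by more than the counting error, judged by the exact (Clopper-Pearson) 95% interval of their ratio. The closest neighbors were *Ifngr2* and *Il10rb*, with a ratio of 1.12 (95% CI, 1.07 to 1.17). *Ifnar2* was 1.29 times *Ifnar1* (95% CI, 1.26 to 1.32), *Ifnar1* was 2.39 times *Ifngr2* (95% CI, 2.31 to 2.47) and *Il10rb* was 2.05 times *Ifngr1* (95% CI, 1.93 to 2.17). The widest step was the last, with *Ifngr1* at 61.4 times *Ifnlr1* (95% CI, 44.4 to 87.6).

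The smaller steps depended on the length assigned to a gene, which counting intervals do not include. *Ifnar1* has 5940 annotated exon bases, but its longest transcript has 3909. With the longest transcript as the length, *Ifnar1* was 1.08 times *Ifnar2* (95% CI, 1.06 to 1.10), in place of 0.776 times (95% CI, 0.759 to 0.794). With that length *Ifngr2* also stood below *Il10rb*, at 0.834 times its level (95% CI, 0.800 to 0.869). The order within the type I receptor, and that of *Ifngr2* and *Il10rb*, were therefore not settled by these data. *Ifngr1* remained below *Ifngr2* with each length tried, at 0.229 to 0.579 times its level. *Ifnlr1* was 0.00796 times *Il10rb* (95% CI, 0.00559 to 0.0110), and 0.00573 to 0.00874 times with the other lengths.

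**Figure D2:**
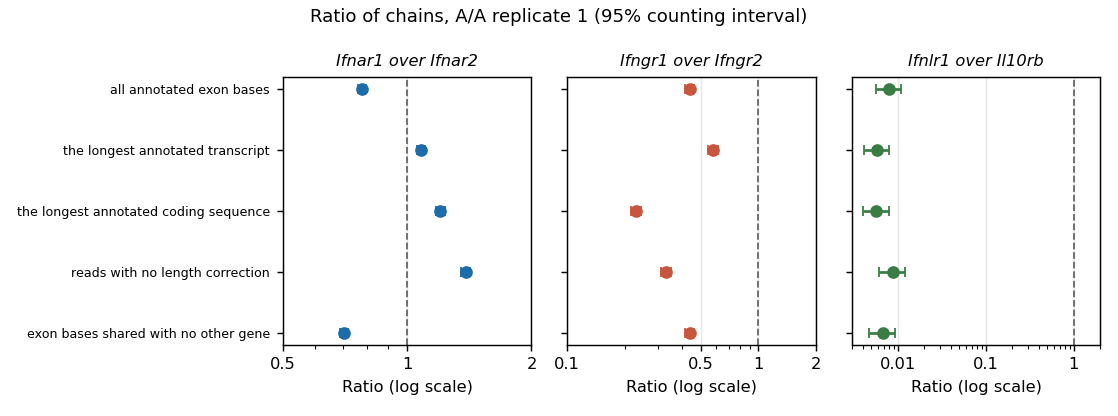
Ratio of the chains within each receptor in A/A replicate 1, on log axes that differ between panels, for 5 choices of gene length, with exact 95% counting intervals. The dashed line marks equal levels: the type I ratio lies on both sides of it (0.703 to 1.39), while the type II and type III ratios lie below it.

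Of the 6 genes, 4 lie close together on chromosome 16. *Ifnar2* (91372783 to 91405589 of the GRCm38 genome), *Il10rb* (91406164 to 91425834), *Ifnar1* (91485238 to 91507441) and *Ifngr2* (91547072 to 91565169) lie in this order on the plus strand, within 192 kb. *Ifngr1* (19591949 to 19610229) is on chromosome 10 and *Ifnlr1* (135686287 to 135708181) on chromosome 4, also on the plus strand. Only 574 bases separate the end of *Ifnar2* from the start of *Il10rb*, yet their levels were 317 and 92.1 TPM. Of the 5 other genes annotated in the stretch, *A930006K02Rik* had 215 reads (15.5 TPM), *Gm21970* had 60, *Gm7860* had 3, *Gm7856* had 2 and the microRNA gene *Mir6367* was listed at 0. The receptor genes were thus the highest in their own stretch, whose ends they set. *Gm7860* and *Gm7856* are annotated as processed pseudogenes and *A930006K02Rik* as a processed transcript. No other protein-coding gene with exon bases of its own lay in the stretch.

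*Gm21970* is annotated across the end of *Ifnar2* and the start of *Il10rb*, on the same strand. It has no exon base of its own, since 35.6% of its 884 exon bases are also bases of *Ifnar2* and 64.4% are bases of *Il10rb*. The shared bases make up 9.46% of the exon bases of *Ifnar2* and 14.9% of those of *Il10rb*. How reads on such bases were assigned is not given in the sources used here. When only the bases shared with no other gene were taken as length, *Ifnar2* stood at 350 TPM and *Il10rb* at 108 TPM, above *Ifngr2* at 103 TPM. All reads were kept, so this setting could only raise *Ifnar2* and *Il10rb*. It holds only if no read on the shared bases was counted for them. No exon base of the 6 genes overlapped an exon of a gene on the opposite strand. Apart from *Gm21970*, at most 0.824% of the 50-base windows in the transcripts of any of the 6 genes, that of *Ifnar1*, occurred in another gene, and none of those of *Ifnlr1* did.

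**Figure D3:**
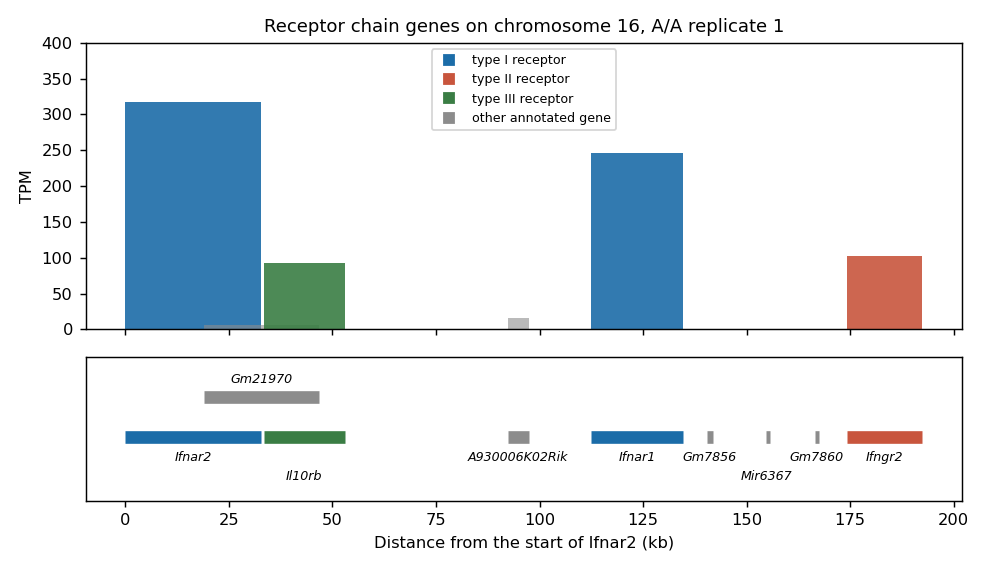
Gene spans on chromosome 16 by distance from the start of *Ifnar2* in kb (lower panel), and TPM of each gene in A/A replicate 1 over the same positions (upper panel, axis from 0). The bars of the 4 receptor genes reach 92.1 to 317 TPM, while the tallest other bar, that of *A930006K02Rik*, is at 15.5 TPM.

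The 250 bases before the transcription start were available from RefSeq (GRCm38.p6) for 5 of the genes, *Ifnar1*, *Ifnar2*, *Ifngr1*, *Ifngr2* and *Ifnlr1*, and the promoter of *Il10rb* was not analysed here. They were searched on both strands for the GAS sequence TTCNNNGAA, the ISRE core (GAAA and GAAA with any 2 bases between them), the GC box GGGCGG and the TATA box TATAAA. No TATA box and no ISRE core was found in the 5 promoters. Part of the *Ifnlr1* window, which is counted here and had 1 GC box, is an annotated exon in GENCODE. The TATA box was present in 12.4% and the ISRE core in 2.98% of all 32851 promoters of the same length. The ISRE core was present in promoters of 5 of the 13 ISRE target genes and 5 of the 11 GAS target genes that could be matched. GC boxes were found in 4 of the 5 receptor genes, 7 of the 11 GAS target genes and 2 of the 13 ISRE target genes, against 32.7% of all promoters. The exception was *Ifnar2*, which held the only GAS sequence among the 5. The GAS sequence was present in 4 of the 11 GAS target genes, 3 of the 13 ISRE target genes and 7.02% of all promoters. A gene was counted if any of its promoters held the sequence, while the shares of all promoters are per promoter. The gene counts and those shares are therefore not in the same unit. The matches describe the letters of the windows and were not tied to the levels.

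The promoters shown are the pair of the type I receptor, whose levels were the highest, and that of *Ifngr2*, which had the most GC boxes. Capitals mark GC boxes on either strand and, in *Ifnar2*, the GAS sequence. The *Ifnar1* window is chr16:91484965-91485214, the *Ifnar2* window chr16:91372533-91372782 and the *Ifngr2* window chr16:91546809-91547058, all on the plus strand.
Ifnar1: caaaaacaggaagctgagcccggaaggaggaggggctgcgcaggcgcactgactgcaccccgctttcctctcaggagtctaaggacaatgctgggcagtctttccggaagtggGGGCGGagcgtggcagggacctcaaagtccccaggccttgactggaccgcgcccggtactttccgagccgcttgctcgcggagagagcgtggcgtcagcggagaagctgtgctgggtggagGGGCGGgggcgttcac
Ifnar2: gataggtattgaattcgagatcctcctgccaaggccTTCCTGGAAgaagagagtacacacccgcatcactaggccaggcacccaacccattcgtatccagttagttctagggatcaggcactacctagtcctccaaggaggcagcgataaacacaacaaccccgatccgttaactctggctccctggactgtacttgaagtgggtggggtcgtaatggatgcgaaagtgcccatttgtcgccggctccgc
Ifngr2: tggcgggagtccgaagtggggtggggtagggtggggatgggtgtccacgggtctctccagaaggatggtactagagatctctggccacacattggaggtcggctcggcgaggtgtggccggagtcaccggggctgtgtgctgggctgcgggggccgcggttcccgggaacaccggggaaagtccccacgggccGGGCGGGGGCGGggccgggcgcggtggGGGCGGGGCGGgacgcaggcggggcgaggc
*Ifnar1* had 2 GC boxes and *Ifngr2* had 4, of which a pair overlap by a base. The G and C content was 65.6% for *Ifnar1*, 54.0% for *Ifnar2* and 74.0% for *Ifngr2*, and the median of all promoters was 52.4%.

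The ligands of the 3 receptors were unequally represented. Of 17 type I IFN genes, 13 were above the floor, with 3037 reads in all. The highest were *Ifna5* with 105 TPM, *Ifna9* with 60.3 and *Ifnb1* with 47.4, and the list median was 19.2 TPM. *Ifna* genes are close paralogs, and reads could have been split between them. *Ifng*, the type II ligand, had 108 reads (6.91 TPM, 95% CI, 5.72 to 8.34). Of the markers of T cells and NK cells, which are known for making it, *Trac* had 16 reads and the other 4 T cell genes and all 3 NK cell genes were listed at 0. Their part in the *Ifng* level was not tested. The type III ligands *Ifnl2* and *Ifnl3* had 372 and 324 reads (43.9 and 46.1 TPM), or 696 reads and 90.0 TPM together. How reads that match both genes were counted is not given in the sources used here. Per kilobase of exon each type III ligand gene thus exceeded the gene of the binding chain, *Ifnlr1*, which had 0.733 TPM. The other cytokines that signal through *Il10rb* were scarce: *Il10* had 10 reads and *Il22* was listed at 0.

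The 6 genes belong to the class II cytokine receptor family, and the other members of the family in the list were mostly low or listed at 0. Of those 6 genes, only *Il10ra*, the binding chain for IL-10, was above the overall median, with 9040 reads (214 TPM, 95% CI, 210 to 218). Per kilobase of exon *Il10ra* was 2.32 times its partner *Il10rb* (95% CI, 2.24 to 2.41), and 1.30 times with the longest coding sequence as the length (95% CI, 1.26 to 1.35). *Il20rb*, a chain of the receptors for IL-19, IL-20 and IL-24, had 33 reads, and *F3*, tissue factor, had 12. *Il20ra*, *Il22ra1* and *Il22ra2* were listed at 0. The IFN receptor genes held 81.8% of the reads of the family, with no correction for length. Their summed level was 805 TPM, beside 215 TPM for the other 6 genes.

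All 4 genes of the JAK kinase list were above the overall median. *Tyk2*, which binds IFNAR1 and IL10RB, had 164 TPM. *Jak1*, which binds IFNAR2, IFNGR1 and IFNLR1, had 72.0 TPM. *Jak2*, which binds IFNGR2, had 256 TPM and was the highest of the family. *Jak3*, which serves the receptors that use the common gamma chain, had 16.3 TPM. The median of the 4 kinases, *Jak3* included, was 118 TPM, beside 97.6 TPM for the 6 receptor chains.

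The factors activated by the receptors were higher again. All 8 genes of the STAT and IRF9 list exceeded the overall median, and the list median was 187 TPM. *Stat2*, which serves types I and III, had 492 TPM. *Irf9*, the DNA-binding partner of STAT2, had 163 TPM. *Stat3*, the main factor downstream of IL-10, had 281 TPM.

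Genes that limit or turn over the receptors ranged from 2.51 to 2698 TPM over 15 genes, and 13 of them exceeded the overall median. *Usp18*, which binds IFNAR2 and blocks its signal, was the highest, with 90888 reads (2698 TPM). *Isg15*, listed because its ubiquitin-like protein stabilizes USP18 in human cells, had 1587 TPM. Whether it has that role in these mouse cells was not tested. The phosphatase gene *Ptpn6* (SHP-1) had 1050 TPM. *Socs1*, an inhibitor of JAK kinases at the IFN receptors, had 116 TPM and *Socs3* had 24.0. Of the genes tied to IFNAR1 turnover, the ubiquitin ligase subunit genes *Fbxw11* and *Btrc* had 97.6 and 2.55 TPM, and the kinase genes *Csnk1a1* and *Prkd2* had 73.0 and 2.51 TPM. *Gnb2l1*, an older name of *Rack1*, was not found under that name, and *Rack1* had 39.6 TPM.

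The ISRE target genes had the highest median of the pathway lists. The 18 ISRE target genes were all above the overall median, from *Eif2ak2* at 52.3 TPM to *Ifit3* at 4597 TPM, with a list median of 723 TPM between *Mx1* at 615 and *Oasl1* at 831. Of the 15 GAS target genes, 14 were above it, from *Nos2* at 1.52 TPM to *Gbp2* at 1729 TPM, with *Irf1* at the median of 239 TPM. Many of these genes respond to more than 1 class of IFN and to TLR ligands, and *Usp18*, *Isg15* and *Socs1* stand on more than 1 list. Without an unstimulated library, these levels do not show induction.

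**Figure D4:**
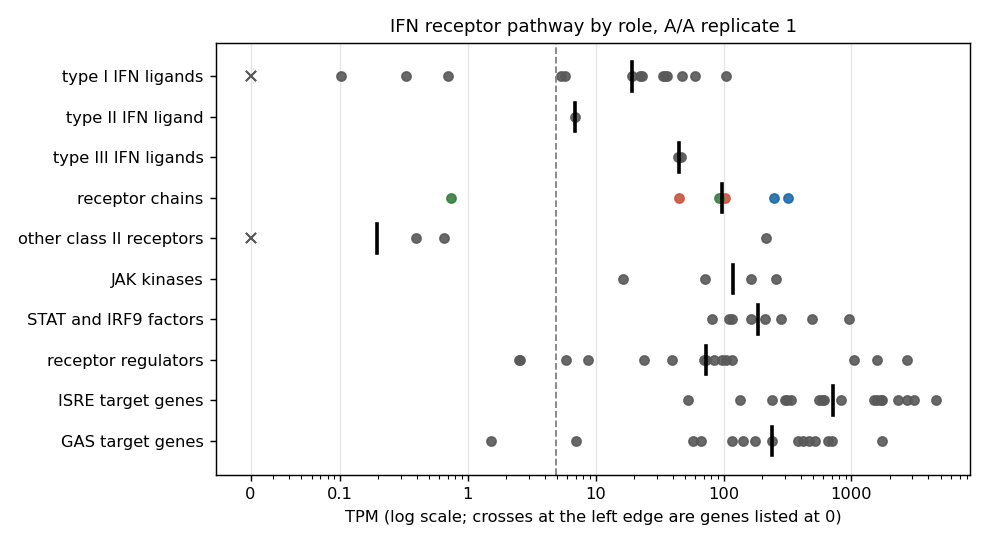
TPM of each gene of the IFN receptor pathway in A/A replicate 1, by role, on a log axis, with genes listed at 0 drawn as crosses at the left edge, overlapping where several fall together. Black bars are list medians and the dashed line is the median of all genes with reads, 4.94 TPM. Receptor chains are colored by type (blue, type I; red, type II; green, type III), and *Ifnlr1* at 0.733 TPM is the only chain left of the dashed line.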

How the data were processed

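Splenic pDCs of A/A replicate 1 were profiled by mRNA-Seq (150 bp paired-end reads). The authors deposited 1 normalized signal value per gene with no stated unit. The submitters' processing notes list HISAT2 and StringTie and the builds mm8 and mm10, without roles or versions; the counting step, annotation and use of strand are not given in the sources used here. Every value above 0 was within 0.001 of a whole multiple of 1.19, so reads were recovered by dividing by that step (100% of values). This takes the smallest value above 0 as 1 read. Whether a read or a read pair was counted is not given in the sources used here. Gene identifiers matched GENCODE M21 (GRCm38) for 99.7%, and 95.2% of these had the same coordinates. The end of *Ifngr2* differed by 454 bases. Exon bases were merged over all transcripts. Recovery, percentiles (ties by midpoint) and interval coverage were tested on simulated data. The libraries simulated for recovery were built as counts divided by 1 factor. They could therefore not check whether the deposited values have that form. The members and lists were chosen with earlier results of these data known. The rule for named genes took the 6 receptor genes, every gene of the ligand, kinase, factor, regulator and family lists, the highest, median and lowest targets, genes of the chromosome 16 stretch, and library checks. Markers are named from fixed lists. Comparisons between genotypes need further libraries and were not made. Alternatives were other gene lengths, other sets for percentiles and leaving out genes at 0; exon bases shared with no other gene were added after seeing the data. Python 3.11.15, numpy 2.4.6, scipy 1.17.1, pandas 2.3.3 and matplotlib 3.10.9 were used. Values of some single genes on the lists are not reported here.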

Additional observations from a re-analysis of the deposited data

How the results depend on the processing

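No paired analysis was possible because just 1 library entered the work and no result comes from a test between genotypes. The ratio of *Ifnar1* to *Ifnar2* was 0.776 with all exon bases and crossed equality with the longest transcript (1.08), the longest coding sequence (1.20) and no length correction (1.39). With exon bases shared with no other gene it was 0.703. The ratio of *Ifngr1* to *Ifngr2*, 0.436, was 0.579, 0.229 and 0.330 with the first 3 of these. The ratio of *Ifnlr1* to *Il10rb* stayed within its counting interval with all 4. These changes follow from the lengths themselves. Of the 15 pairs among the 6 genes, 13 kept their order with the longest transcript and 14 with each of the other 3 lengths. The median percentile of the 6 genes, 92.2, was 97.4 among all genes, 90.4 among genes with at least 10 reads and 89.5 among protein-coding genes with reads. The percentile of *Ifnlr1*, 20.2, was 73.1, 9.41 and 13.0 in these sets. These shifts follow from the set used. With the longest transcript, list medians were 15.4 TPM for type I ligands, 136 for JAK kinases, 84.2 for regulators, 733 for ISRE targets, 334 for GAS targets and 218 for pDC markers. With genes at 0 left out, the median of the other class II receptors was 0.650 TPM in place of 0.197. Depth limited *Ifnlr1*, with 37 reads. With 1 library, no value here has a replicate error.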
